A study of Mus musculus with 2 samples.

Results

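The 10 genes described here are microRNA genes of the proximal part of the Dlk1-Dio3 imprinted domain on mouse chromosome 12: Mir673, Mir493, Mir337, Mir540, Mir665, Mir431, Mir433, Mir127, Mir434 and Mir136. They were chosen by position, from GENCODE M21 symbols matched by Ensembl gene identifier, and all 10 were found among the 2202 gene rows of the count tables. Small RNA with inserts below 30 nt was sequenced from gastrocnemius, a calf muscle, of male B6CASTF1/J mice aged 2 months. B6CASTF1/J mice are first-generation hybrids of C57BL/6J, a laboratory strain, and CAST/EiJ, which is wild-derived. There is 1 untreated group with 1 library for each of 2 biological replicates. The labels number the males separately but give both the same donor identifier, so the spread between the libraries may be biological or technical. The series holds no second condition, and the data give the level of each gene and how far 2 libraries of the same tissue differ.

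Imprinted genes are expressed from the chromosome of 1 parent only. In the Dlk1-Dio3 domain the protein-coding genes Dlk1, Rtl1 and Dio3 are expressed mainly from the paternal chromosome, and the long non-coding RNAs Meg3 and Rian with the microRNAs of the domain from the maternal one. Rtl1 derives from a retrotransposon and is known for roles in placenta and muscle. MicroRNAs encoded on its opposite strand pair perfectly with its messenger RNA and are known to guide its cleavage. The domain is also known in muscle from the callipyge sheep, in which a mutation there causes muscle overgrowth.

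The genes span 23399 bases of the mm10 assembly on the plus strand and fall into groups of 5 by their position. Mir431, Mir433, Mir127, Mir434 and Mir136 lie entirely within exon 2 of Rtl1, antisense to its coding sequence of 1744 codons. Their 5 hairpins were exact complements of the Rtl1 transcript, which follows from this position. Mir673, Mir493, Mir337, Mir540 and Mir665 lie between the annotated ends of Meg3 and Rtl1 and overlap no gene other than a microRNA gene. Mir673 begins 263 bases after the last base of Meg3, and Mir665 ends 2785 bases before the Rtl1 gene. Mir337, Mir540 and Mir665 are packed together, with 194 and 167 bases between neighbours.

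The mature sequences of the 6 genes to which most of the counts or the differences between libraries belong are shown here, with the seed (bases 2 to 8, which pair with target messenger RNAs) in capitals. All sequences are RefSeq's (GRCm38.p6), and all 10 hairpins and 20 mature arms of the group had an entry there.
miR-127-5p: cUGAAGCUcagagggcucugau
miR-127-3p: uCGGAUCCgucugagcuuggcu
miR-434-5p: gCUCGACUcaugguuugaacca
miR-434-3p: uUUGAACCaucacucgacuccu
miR-337-5p: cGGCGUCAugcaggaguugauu
miR-337-3p: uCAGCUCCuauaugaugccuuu
miR-433-5p: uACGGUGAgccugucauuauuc
miR-433-3p: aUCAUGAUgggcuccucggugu
miR-136-5p: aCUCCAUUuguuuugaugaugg
miR-136-3p: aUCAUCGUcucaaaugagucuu
miR-431-5p: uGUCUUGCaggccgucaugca
miR-431-3p: cAGGUCGUcuugcagggcuucu

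The 20 mature arms carried 20 different seeds, so no pair of them shares a seed although the genes are neighbours. Only 2 of the 20 share their seed with another mouse microRNA in the table. These are miR-673-5p, with miR-6985-3p, and miR-540-3p, with miR-6915-5p. Mir6985 had 0 counts in both libraries and Mir6915 had 0 and 1. The counts are per gene and do not tell the 5p arm from the 3p arm.

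All 10 mature arms of the 5 antisense genes had a fully complementary site in the Rtl1 coding sequence, which follows from their position on its opposite strand. Among 55341 GENCODE genes, 8 of these 10 arms had their full complement in Rtl1 alone, and both arms of Mir136 also had it in Mir3071, an annotated microRNA gene on the opposite strand of the same place. For 1 arm of each gene, the Rtl1 site is printed as the Rtl1 strand reads, 5′ to 3′, with the bases that pair with the seed in capitals. These show where along Rtl1 each antisense microRNA maps.
miR-136-5p site, chr12:109595331-109595352 minus, from codon 18: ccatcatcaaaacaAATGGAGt
miR-434-3p site, chr12:109594565-109594586 minus, from codon 273: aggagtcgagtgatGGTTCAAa
miR-127-3p site, chr12:109592888-109592909 minus, from codon 832: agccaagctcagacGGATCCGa
miR-433-3p site, chr12:109591781-109591802 minus, from codon 1201: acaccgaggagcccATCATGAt
miR-431-5p site, chr12:109590459-109590479 minus, from codon 1642: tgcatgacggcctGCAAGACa

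The libraries held 638779 (replicate 1) and 2272132 (replicate 2) same-strand counts over all gene rows, a ratio of 3.56. Levels are counts per 1000000 of that total (CPM), with 95% exact Clopper-Pearson intervals that treat each read as an independent draw. They cover counting error only and leave out the spread between libraries. Sequenced PCR copies are not independent molecules, so the intervals may be too narrow even for counting error. The deeper replicate 2 gives the narrower intervals. A count of 0 allows up to 3 counts, or 4.70 and 1.32 CPM. Multi-mapping reads were 75.2 and 74.4% of all reads and are not in the gene counts. No member hairpin shared a run of more than 14 bases with a counted gene at another position, and other places in the genome were not examined. As a check of the tissue label, all 9 skeletal muscle marker genes were detected. The 6 neural marker genes (the copies of Mir9 and Mir124a) summed to 0 and 0.440 CPM, and 5 of them, namely Mir9-2, Mir9-3 and the 3 Mir124a copies, were at 0 in both. A read that fits several copies counts as multi-mapping and is left out. Low counts at these copies therefore cannot check the tissue label. The liver marker, Mir122, was low but detected, at 15.7 and 29.9 CPM.

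All 10 genes had counts in both libraries, and 1 of them, Mir127, held most of these. Detection was set at 2 CPM or more in both libraries, which all 10 passed. For Mir665 this rests on 2 counts in replicate 1, under the limit of 3 counts, so it is not firmly detected there. Their summed level was 6721 CPM in the first library and 9255 CPM in the second, a mean of 7988 ± 1792 CPM (SD, n = 2). That is 0.672 and 0.925% of the counts assigned to microRNA genes. The 5 genes antisense to Rtl1 supplied 92.4% ± 1.46 of the group's sum (SD, n = 2), and the 5 between Meg3 and Rtl1 supplied 7.61% ± 1.46. In bulk tissue, fewer cells of a type and less RNA per cell cannot be told apart, so none of these levels says which cells of the muscle carry the microRNAs.

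**Figure D1:**
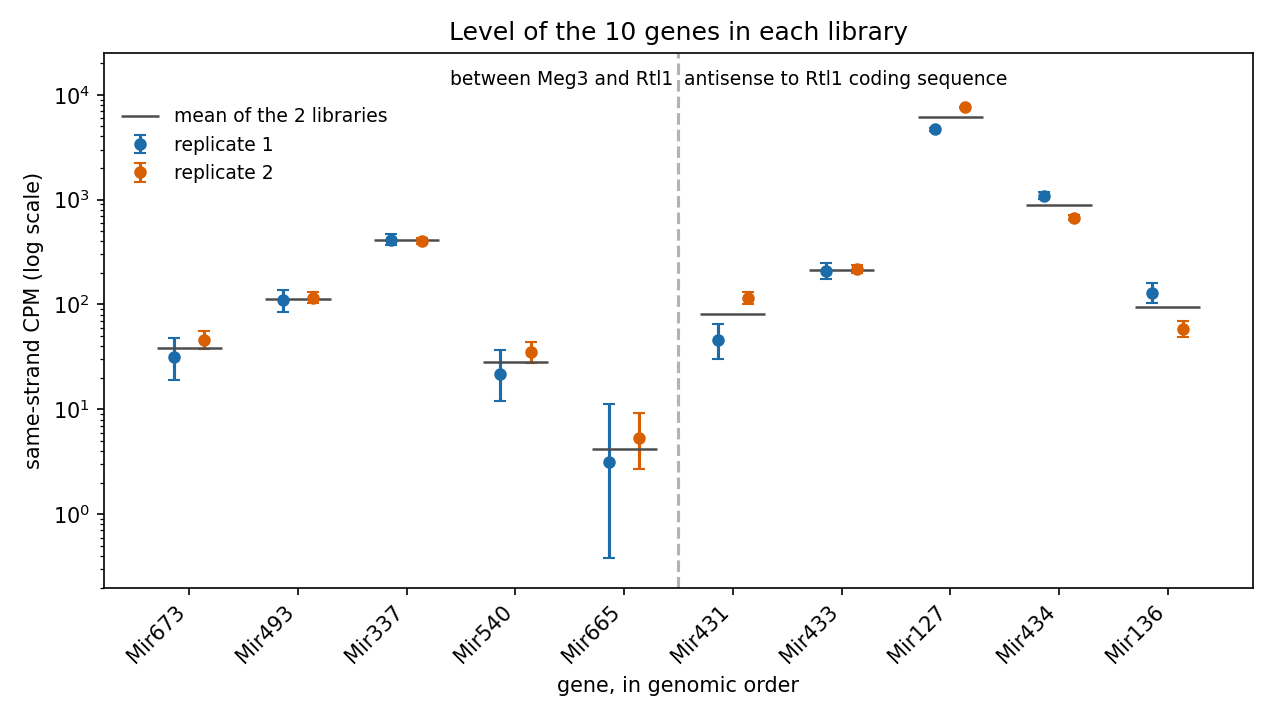
Same-strand CPM (log scale) of the 10 genes in genomic order in replicates 1 and 2, with 95% Clopper-Pearson counting intervals as bars and the mean as a grey line. Mir127 stands highest at 4664 and 7582 CPM and Mir665 lowest at 3.13 and 5.28 CPM, and the libraries lie apart beyond their counting intervals for Mir431, Mir127, Mir434 and Mir136.

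Among the antisense genes, Mir127 was by far the most abundant. Mir127 (ENSMUSG00000070076.2, chr12:109592846-109592915, codons 830 to 853 of Rtl1) is known for guiding cleavage of Rtl1 RNA and for its part in placental development. It had 2979 counts, or 4664 CPM (4498 to 4834), in replicate 1 and 17227 counts, or 7582 CPM (7469 to 7696), in replicate 2. It ranked 32 among all gene rows of replicate 1 and 23 in replicate 2. These ranks leave out multi-mapping reads, so genes with several copies may be undercounted in them. The share of Mir127 in the group's counts was 69.4 and 81.9%. The mean was 6123 ± 2064 CPM (SD, n = 2), 6.95-fold that of the next member.

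Mir434 (ENSMUSG00000070133.1, chr12:109594506-109594599, codons 269 to 300) came second, and its libraries lay in the opposite order. It had 697 counts, or 1091 CPM (1012 to 1175), in replicate 1 and 1526 counts, or 672 CPM (638 to 706), in replicate 2. Its mean was 881 ± 297 CPM (SD, n = 2). A run of 13 bases occurs 2 times in its hairpin without overlap, and 10.1% of all counted hairpins hold a repeat at least that long. The hairpin is shown with both mature arms in capitals, beside the hairpin of Mir127, whose longest repeat is 5 bases.
Mir434 hairpin, chr12:109594506-109594599 plus: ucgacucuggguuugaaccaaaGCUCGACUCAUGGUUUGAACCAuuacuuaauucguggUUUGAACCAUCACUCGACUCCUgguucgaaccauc
Mir127 hairpin, chr12:109592846-109592915 plus: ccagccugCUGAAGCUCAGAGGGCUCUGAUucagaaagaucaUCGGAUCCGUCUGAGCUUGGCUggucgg
Mir434 repeated run: ugguuugaaccau

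One copy of the run covers the last 12 bases of miR-434-5p, and the other the first 10 bases of miR-434-3p with its whole seed. The longest run that the hairpin of Mir434 shares with a counted gene elsewhere is 11 bases.

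The other 3 antisense genes were lower by an order of magnitude or more than Mir127. Mir433 (ENSMUSG00000070072.1, chr12:109591715-109591838, codons 1189 to 1230) had 134 and 495 counts, or 210 and 218 CPM, and hardly differed between the libraries (214 ± 5.71 CPM, SD, n = 2). Mir136 (ENSMUSG00000104858.1, chr12:109595327-109595388) lies over codons 6 to 26, just after the Rtl1 start codon, and had 83 counts, or 130 CPM, in replicate 1 and 133 counts, or 58.5 CPM, in replicate 2. Mir431 (ENSMUSG00000070080.1, chr12:109590447-109590537, codons 1623 to 1653), a microRNA known to act on Pax7 in muscle satellite cells, had 29 counts, or 45.4 CPM, and 263 counts, or 116 CPM. So Mir136 was higher in replicate 1 and Mir431 in replicate 2, while Mir433 stayed level.

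Of the genes between Meg3 and Rtl1, Mir337 was the most abundant. Mir337 (ENSMUSG00000065526.4, chr12:109585789-109585885) had 265 and 924 counts, or 415 and 407 CPM (411 ± 5.79 CPM, SD, n = 2). Mir493 (ENSMUSG00000077025.2, chr12:109580233-109580315) had 70 and 264 counts, or 110 and 116 CPM. Both were at nearly the same level in each library. Mir673 (ENSMUSG00000076316.1, chr12:109571990-109572080), the first of the group after Meg3, had 20 and 104 counts, or 31.3 and 45.8 CPM. Mir540 (ENSMUSG00000072900.2, chr12:109586080-109586146) had 14 and 80 counts, or 21.9 and 35.2 CPM. Mir665 (ENSMUSG00000076313.1, chr12:109586314-109586407) was near the detection limit, with 2 counts in replicate 1 and 12 in replicate 2, or 3.13 CPM (0.379 to 11.3) and 5.28 CPM (2.73 to 9.23). Mir540 and Mir665, the close neighbours of Mir337, had far fewer counts than it in both libraries.

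**Figure D2:**
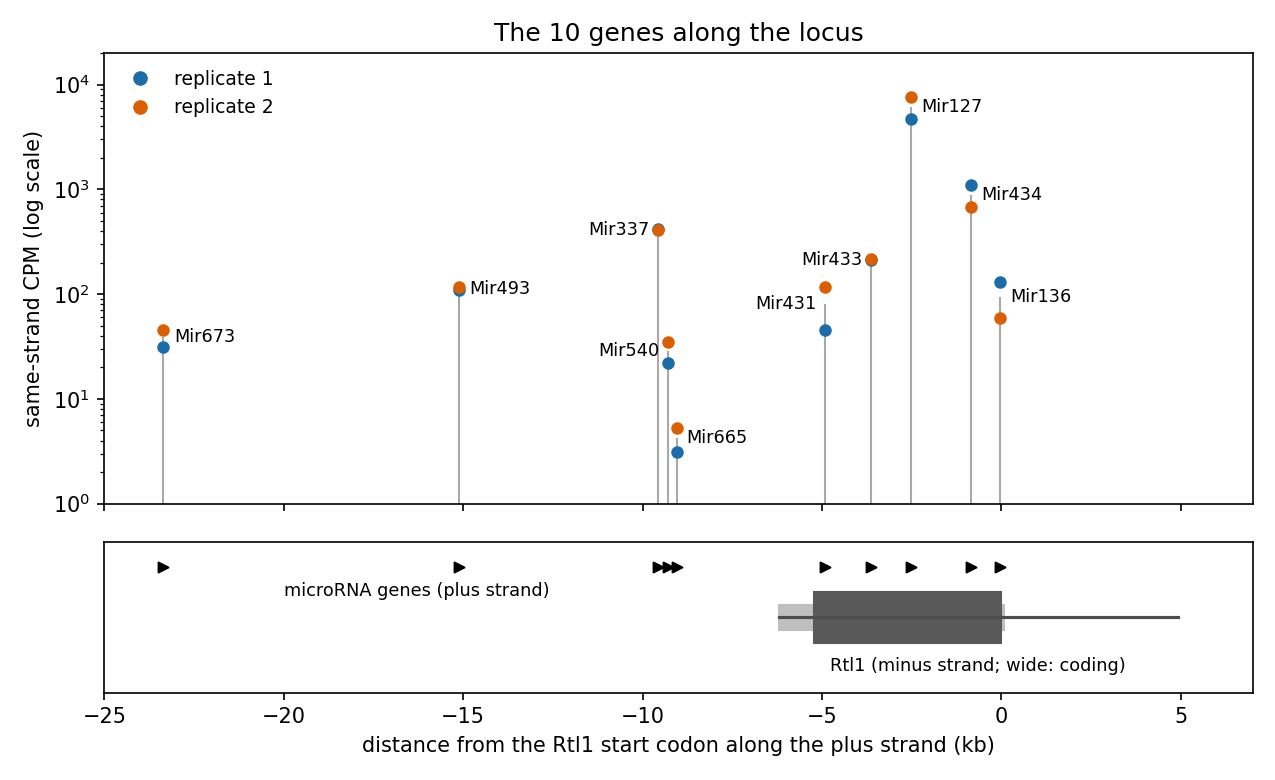
Same-strand CPM (log scale) of each gene in replicates 1 and 2 against its distance in kb from the Rtl1 start codon along the plus strand, with stems to the mean and, in the lower panel, the Rtl1 gene (wide block, coding sequence) and the microRNA genes. Mir127, 2.52 kb into the coding sequence, rises above its neighbours Mir433 and Mir434, and levels of neighbouring genes such as Mir337 (411 CPM) and Mir665 (4.21 CPM) differ strongly.

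Ordered by mean CPM, the genes ran from Mir127 through Mir434, Mir337, Mir433, Mir493, Mir136, Mir431, Mir673 and Mir540 to Mir665, or from 6123 to 4.21 CPM. Of the 9 pairs of neighbours in this order, 5 had ranges over the 2 libraries that did not overlap: the 4 steps from Mir127 down to Mir493, and the step from Mir540 to Mir665. The other 4 pairs overlapped. Within each library, though, Mir493 was above Mir431, Mir431 above Mir673 and Mir673 above Mir540. Mir136 moved from above Mir493 in replicate 1 to below Mir431 in replicate 2, which shifted the places of Mir493 and Mir431 as well. In replicate 2 Mir493 and Mir431 were at nearly the same level, with 264 and 263 counts. These levels are CPM per gene and were not divided by length, because a read below 30 nt stands for a whole mature molecule. Per 100 bases of hairpin, Mir136 moved ahead of Mir493 and Mir540 ahead of Mir673, and the other 6 kept their places.

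Between the libraries the genes did not move together: 2 were higher in replicate 2, 2 were lower and 6 did not pass the test. The test, an exact two-sided binomial test conditional on the library totals, was run on the 311 genes whose counts summed to 10 or more, all 10 members among them. Its p-values were adjusted by Benjamini-Hochberg over the 311, with a threshold of 0.05. The test counts reads alone as error, so it compares these 2 libraries and says nothing of mice or conditions. It also treats reads as independent, so its p-values may be too small. Of the 311 genes 40.5% passed, 23.2% higher and 17.4% lower, and the members' 4 of 10 is close to that background. With TMM scaling, 57 of the 311 were higher and 64 lower, in place of 72 and 54. The calls of the members stayed at 2 and 2, for the same 4 genes.

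Mir431 was 2.55-fold higher in replicate 2 (95% counting interval 1.73 to 3.88, adjusted p = 5.10e-07 by the exact binomial test). Mir127 was 1.63-fold higher (1.56 to 1.69, adjusted p = 3.48e-146 by the same exact test). Mir434 was at 0.616-fold (0.562 to 0.674, adjusted p = 9.19e-24, exact test) and Mir136 at 0.450-fold (0.340 to 0.600, adjusted p = 3.39e-07, exact test). All 4 lie antisense to Rtl1. Mir433, which lies between Mir431 and Mir127, was at 1.04-fold (0.856 to 1.27). When the spread between the libraries over all genes was counted as noise as well (27.6% as a coefficient of variation), edgeR's exact test called none of the 10 genes. Mir431 alone had an unadjusted p under 0.05 there (p = 0.0369 by the exact test, adjusted p = 0.605), and that test called 2 of the 311 genes, or 0.643%.

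The 5 genes between Meg3 and Rtl1 had no call. Mir337 was at 0.980-fold (0.854 to 1.13) and Mir493 at 1.06-fold (0.812 to 1.40), both close to 1. The ratios of Mir673 (1.46-fold, 0.900 to 2.49), Mir540 (1.61-fold, 0.904 to 3.07) and Mir665 (1.69-fold, 0.376 to 15.5) had intervals that include 1. These intervals also include the ratio of Mir127, 1.63-fold. The smallest ratio detectable at these counts was not computed. Whether these 5 genes and the antisense genes differ in how they vary was not tested.

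**Figure D3:**
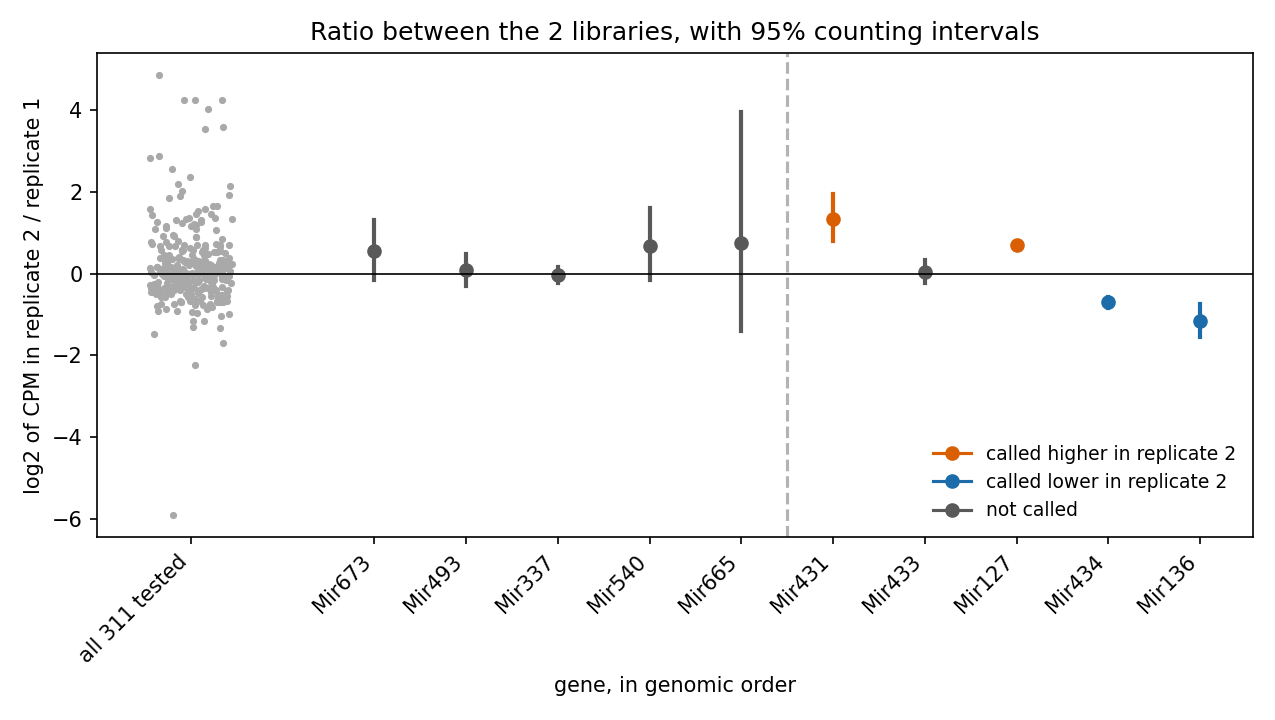
Log2 ratio of CPM in replicate 2 over replicate 1 for the 10 genes in genomic order, with 95% counting intervals as bars and colours for the binomial call, beside all 311 tested genes as grey points (those with a prior count of 0.5). Mir431 and Mir127 lie above 0, Mir434 and Mir136 below it, and the 5 genes left of the dashed line, between Meg3 and Rtl1, have intervals that include 0.

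The median log2 ratio of the 10 genes was 0.31 and that of all 311 tested genes 0.05. The median of the absolute log2 ratios was 0.69 for the members and 0.38 over all tested genes. At least a 2-fold difference was seen in 2 of the 10, Mir431 and Mir136, and in 52 of the 311. The sum of the members was 1.38-fold higher in replicate 2, where Mir127 was higher. The other 9 genes had a summed level of 2057 and 1673 CPM in replicates 1 and 2, or 0.813-fold.

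The summed levels of the marker lists moved between the same libraries. Reads that fit several gene copies, such as the copies of Mir1a and Mir133a in the muscle list, are left out of these sums. The sums therefore do not rank the lists by abundance in the tissue. All 9 skeletal muscle markers and 1 of 2 endothelial markers were detected, and their sums were higher in replicate 2, at 22884 and 52158 CPM for muscle and 81286 and 129798 CPM for endothelium. Both smooth muscle markers were detected, at 123068 and 81451 CPM. The 2 erythroid markers stood at 6176 and 4688 CPM and the 4 leukocyte markers at 2542 and 2889 CPM. No marker of these 5 lists was at 0 in both libraries. The part of these shifts, or of the difference in depth, in the ratios of Mir431, Mir127, Mir434 and Mir136 was not tested.

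Reads on the Rtl1 strand were not seen at the antisense genes. The 5 genes had 3922 and 19644 counts on their own strand and 0 and 0 on the opposite strand, which is the strand of Rtl1. A count of 0 was given the limit of 3 counts, which is not an exact interval. That limit allows a share of up to 0.0765% of the own-strand counts in replicate 1 and 0.0153% in replicate 2. These are reads from inserts below 30 nt, so the full-length Rtl1 messenger RNA was not measured. Among the 5 genes between Meg3 and Rtl1, 2 counts on the opposite strand were found, both at Mir337 in replicate 1. They were 0.749% of its counts (exact 95% interval 0.0908 to 2.68%), and Mir337 had 0 of 924 in replicate 2.

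A pair of members vanishes when strand is ignored. The genes Mir337 and Mir136 each overlap an annotated microRNA gene on the minus strand, Mir3544 (chr12:109585813-109585873) and Mir3071 (chr12:109595318-109595397), and their unstranded counts were 0 in both libraries. On its own strand Mir3544 had 2 and 0 counts and Mir3071 had 0 and 0, so nearly all reads at both places came from the plus strand. The other 8 members had the same counts with and without strand. The mature arms annotated on both strands of the Mir136 locus are shown with their seeds in capitals, as the strand alone decides to which gene a read belongs.
miR-136-5p (plus): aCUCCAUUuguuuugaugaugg
miR-3071-3p (minus): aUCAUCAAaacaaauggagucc
miR-136-3p (plus): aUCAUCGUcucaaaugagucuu
miR-3071-5p (minus): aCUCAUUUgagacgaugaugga

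**Figure D4:**
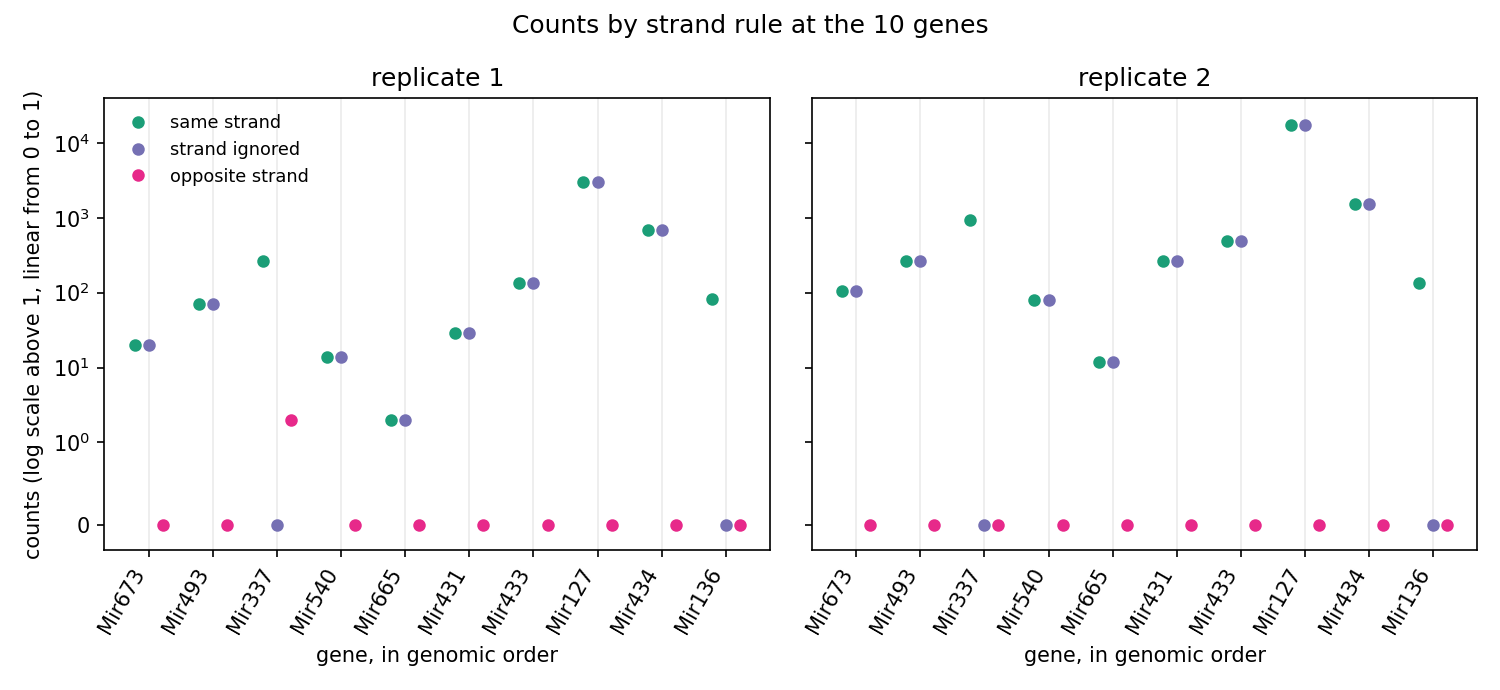
Counts of each gene on its own strand, with strand ignored and on the opposite strand, in replicates 1 and 2 (log scale above 1, linear between 0 and 1). Mir337 and Mir136 fall to 0 when strand is ignored, and the opposite strand is at 0 for every gene except Mir337 in replicate 1, with 2 counts.

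Within the same stretch lie 3 other annotated microRNA genes on the plus strand. Mir432, antisense to Rtl1 between Mir434 and Mir136, had 0 counts in both libraries. Mir3070a had 2 and 0 counts and Mir3070b had 0 and 0. The rest of the domain, taken as all other gene rows on the plus strand between Dlk1 and Dio3, held 49 genes. Of these 34 were detected and 10 had 0 counts in both libraries. They summed to 11502 ± 764 CPM (SD, n = 2), led by Mir411 (4770 and 5134 CPM) and Mir379 (1835 and 2011 CPM). The 10 members thus held 38.0 and 43.5% of the domain's counts. The median level of the detected genes was 104 CPM for the members, 58.8 CPM for the rest of the domain and 93.4 CPM over all detected genes. Of 36 tested genes of the rest of the domain 11 were higher in replicate 2, 3 lower and 22 did not pass, which is 38.9% called by the binomial test. By edgeR's exact test 1 of the 36 was called, Mir543, with 7 and 297 counts (11.0 and 131 CPM, adjusted p = 0.000756). It is named because it was the single call, after its values were seen.

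The gene rows closest in level to Mir127 over both libraries, by distance in log2(CPM + 1), were Mir149 (4851 and 6742 CPM, distance 0.18), Mir191 (5392 and 6834 CPM, 0.26) and Mir151 (5590 and 6052 CPM, 0.42). Closest to Mir434 were Mir20a (986 and 913 CPM, distance 0.47), Mir652 (742 and 663 CPM, 0.56) and Mir497 (989 and 988 CPM, 0.57). With 2 libraries this likeness is one of level only.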

How the data were processed

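The deposited tables, 1 per library, list raw counts of reads per microRNA gene on mm10 with GENCODE M21, per the README texts deposited with them. Which aligner and counter were used is not given in the sources used here. Of 3 unnamed count columns, the one that is second among them was read as the gene's own strand, since few reads had no feature there. Library totals leave out the rows that hold no gene: unmapped reads were 5.97 and 6.93% of reads, multi-mapping reads 75.2 and 74.4%, and reads with no feature 1.62 and 2.48%. Assigned reads were 17.2% of 3708776 reads in replicate 1 and 16.1% of 14072300 in replicate 2. CAST alleles were not analysed here.

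CPM, intervals, ratios (prior count of 0.5 for log2 values) and the exact binomial test were computed in Python 3.11.15 (numpy 2.4.6, scipy 1.17.1, pandas 2.3.3). A fit with residual error was not possible with 1 library against 1, so edgeR 4.0.16 (R 4.3.3) supplied TMM scaling and an exact test at a common dispersion from both libraries as 1 group, and DESeq2 1.42.0 its size factors. Hairpins were folded with ViennaRNA 2.7.2, and figures drawn with matplotlib 3.10.9. The script of the binomial test was tested on simulated data with counting error alone. That simulation held no spread between libraries, so it does not give the test's error rate in these data. The members, lists and tests were chosen with earlier results of these data known. Named genes are all members, the 3 nearest in level to the leading 2, the 2 highest others of the domain, seed sharers, and genes named by position or as markers. Mir3070a, Mir3070b and Mir432 were named as annotated within the span of the members.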

Additional observations from a re-analysis of the deposited data

How the results depend on the processing

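The calls of Mir431, Mir127, Mir434 and Mir136 kept their direction and side of the threshold with TMM scaling, DESeq2 size factors, a minimum of 1 count, a minimum of 50 counts and a prior count of 2. The highest adjusted p there was 2.23e-06 by the exact binomial test. With strand ignored 3 of the 4 were called and Mir136 had no counts. With edgeR's exact test 0 of the 10 were called (adjusted p 0.605 to 1), since that test counts the spread between the libraries as noise. Of 311 genes, 126 passed the binomial test and 2 the edgeR test. With a minimum of 1 count over both libraries 120 of 549 passed, or 21.9%. Mir433 changed sign with TMM scaling, to a log2 ratio of -0.0057, and was not called in any setting.

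With strand ignored the summed level moved to 10686 CPM, as the library totals then lose reads at genes that overlap on both strands, and 2 of the 10 genes kept their place in the order of levels. With levels per 100 bases of hairpin 6 kept it, and with either library alone 8 did. Detection was 10 of 10 at 1 CPM and 9 at 10 CPM. Leaving out a replicate gave a summed level of 6721 to 9255 CPM, a share of the domain of 38.0 to 43.5% and 0 to 2 opposite-strand counts. Ratios cannot be formed from 1 library. No paired analysis was possible because both libraries belong to 1 group. Mir665, with 2 counts in replicate 1, is below the limit of 3 counts there, and depth limits any statement on its ratio.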

Other observations

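The hairpins of the 10 genes ran from 62 bases (Mir136) to 124 bases (Mir433). Their GC content ran from 40.3% in Mir136 to 61.5% in Mir673, with a median of 54.8% against 50.8% over all counted hairpins. Folded with ViennaRNA, the median minimum free energy of the members was -47.4 kcal/mol per 100 bases, and that of all counted hairpins -36.9. Mir540, with one of the lowest counts of the group, had the lowest energy per 100 bases at -61.0, and Mir433 the highest at -36.1. Mir127 was at -50.1, so the most abundant member was not the one predicted to fold most tightly. Members were not tested against other hairpins for these features, and the fold is a prediction from sequence.

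Besides Mir434, the hairpins of Mir431 and Mir540 each hold a repeated run of 10 bases, a length that 14.3% of all counted hairpins reach. In Mir431 the run covers bases 2 to 11 of miR-431-5p, its whole seed included, and bases 7 to 16 of miR-431-3p, with the last 2 bases of that seed.
Mir431 hairpin, chr12:109590447-109590537 plus, mature arms in capitals: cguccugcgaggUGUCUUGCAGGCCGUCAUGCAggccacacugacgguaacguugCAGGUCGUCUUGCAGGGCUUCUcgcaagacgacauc
Mir431 repeated run: gucuugcagg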
